A study of Mus musculus with 9 samples.

Results

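Macrophages of TRIF-deficient (TRIF KO) mice were compared after 4 h of lipopolysaccharide (LPS) and without LPS, as the difference between 1 stimulated and 1 unstimulated array. These 2 arrays were chosen by their labels from the 9 arrays of the study, and the comparison covered all 10032 genes that reached a log2 value of 6 on at least 1 of the 9. Cells without TRIF still have MyD88, the other adaptor of the LPS receptor, so the comparison addresses the late response left to MyD88. The cells were peritoneal macrophages elicited with thioglycollate, and they came from mice labelled wild type, MyD88-/- (MyD88 KO) and TRIF-/- (TRIF KO). Each genotype was sampled unstimulated (0 h) and after 1 h and 4 h with LPS at 100 ng/ml, and total RNA was hybridised to Affymetrix arrays. Each of the 9 groups had 1 array. The labels give no allele, strain background, sex or age, and they do not say how many mice stand behind an array or whether arrays share mice. Every value is a log2 expression value, and every difference is 4 h minus 0 h of the same genotype on the log2 scale unless another is named, so that 1 means 2-fold.

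LPS binds Toll-like receptor 4 (TLR4) together with its co-receptors CD14 and MD-2. At the plasma membrane the receptor recruits MyD88, which acts through IRAK kinases and TRAF6 on NF-kB and MAP kinases and drives inflammatory cytokines and chemokines. From endosomes it signals through TRIF, which activates the kinases TBK1 and IKK-epsilon and the factor IRF3, and so the transcription of interferon beta. Secreted interferon beta then acts on its receptor on the same and neighbouring cells and raises a large set of antiviral interferon-stimulated genes. TRIF also feeds a later wave of NF-kB activity.

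The 9 arrays had medians between 7.01 and 7.07 (log2) and no missing values, and precision is limited by there being 1 array a group. The 9 measured macrophage identity genes lay between 7.37 and 14.43 at 0 h and between 7.19 and 14.47 at 4 h in TRIF KO. Lyz2, the macrophage lysozyme, was the highest at both times, and Gata6, a factor of resident peritoneal macrophages, the lowest, within the range of the other cell types. Fcgr1, a high-affinity antibody receptor, went from 9.20 to 8.46, a difference of -0.74 that did not pass the test at 0.05 (limma, Benjamini-Hochberg adjusted p = 0.0624). Of 38 measured markers of 9 other cell types, 0 differed 2-fold in TRIF KO, and their levels lay between 5.74 and 8.63 at 0 h and between 5.71 and 8.77 at 4 h. The largest difference among them was 0.39, for the fibroblast collagen Col3a1, which read 6.05 at 0 h and 6.45 at 4 h, and its other probe set gave -0.039. The part of such cells in the results was not tested. Ticam1, the gene of TRIF, was not analysed here because no probe set names it alone, so the genotype was not checked at its target. Myd88 read 9.56, 9.54 and 9.96 at 0, 1 and 4 h in TRIF KO and 9.57, 9.58 and 10.002 in wild type, so its probe set read near wild type at each time. In MyD88 KO the same probe set still read 9.295, 9.191 and 9.338. It therefore says little on the level of the remaining adaptor and does not check the MyD88 KO genotype. Cebpb and Mertk, both on the identity list, are described with the responding genes.

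After 4 h of LPS, the highest differences in TRIF KO macrophages were those of the chemokines Cxcl1 and Cxcl2, the itaconate enzyme Acod1, the receptors Fpr2, Clec4e and Gpr84, the cytokine Tnf and the NF-kB cofactor Nfkbiz. Of these 8, Cxcl2, Acod1, Fpr2, Clec4e and Gpr84 also passed the limma test given in the next paragraph, and Cxcl1, Tnf and Nfkbiz did not. At least 2-fold higher were 41 of the 10032 genes (0.409%) and at least 2-fold lower were 5 (0.0498%). The 8 genes named first were at least 4-fold higher, and 0 genes were 4-fold lower. The unstimulated TRIF KO and wild-type arrays differed by 2-fold in 8 genes higher and 7 lower, and 99% of genes differed there by less than 0.475. Genes near the limit of 2-fold were Nlrp3 at 1.01, Lmo4 at 1.02, Icosl and Met at 1.03 and Nfkb2 at 1.04 just above it, and Slc7a2 at 0.995, Vasp at 0.994, Ednrb at 0.97, Phlda1 at 0.96 and Ext1 at 0.94 just below. In bulk RNA, a change in the share of cells that express a gene and a change in the amount per cell cannot be told apart.

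With 1 array a side the 2-fold counts have no replicate check, so a limma model was also fitted to all 9 arrays. It gave the TRIF KO arrays their own terms at each time and took the error of a gene from how far its responses differed between wild type and MyD88 KO. The standard errors (SE) below come from that fit, with the lone TRIF KO arrays assumed to vary like the others. Adjusted p-values are limma p-values after Benjamini-Hochberg adjustment across the 10032 genes, two-sided, and rose or fell is written of genes past the threshold of 0.05. By this test 43 genes rose (0.429%), by 0.735 to 2.88, and 10 fell (0.0997%), by 1.19 to 0.838 on the log2 scale. These counts depended on the scaling and on single arrays: 26 rose and 6 fell after centring on the reference transcripts, 0 passed with values under 6 raised to 6, and 121 rose and 56 fell without the 4 h array of either wild type or MyD88 KO, which left 1 residual degree of freedom and 1 common error for every gene. Under cyclic loess, and with the mean of the probe sets, 30 of the 43 were still called. Of the genes named by rule, Lmo4, Pde4b, Tma16, Daglb, Id3 and Mertk were lost under centring, cyclic loess and the mean of the probe sets alike. Cebpb was lost under centring and cyclic loess, Klf4 under cyclic loess and the mean of the probe sets, Cxcl2 and Abcd2 under cyclic loess, Ikbke under centring, and Birc3 and Nfkb2 with the mean of the probe sets. All 43 also stood above their 0 h level in wild type and in MyD88 KO, and all 10 stood below it in both. Over all genes the median difference was 0.011 in wild type and -0.044 in MyD88 KO. The test favours genes whose responses are alike in these 2 genotypes, so this agreement is partly given by it. Of the 41 genes at least 2-fold higher, 25 rose by this test and 16 did not pass. The 16 had a median SE of 0.401 and a median MyD88 KO response of 0.396, against a median SE of 0.159 among the 53 genes called and a median MyD88 KO response of 1.08 among the 43 that rose. A gene that responded in wild type and little in MyD88 KO therefore carries a large error in this fit, whatever its value in TRIF KO.

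**Figure D1:**
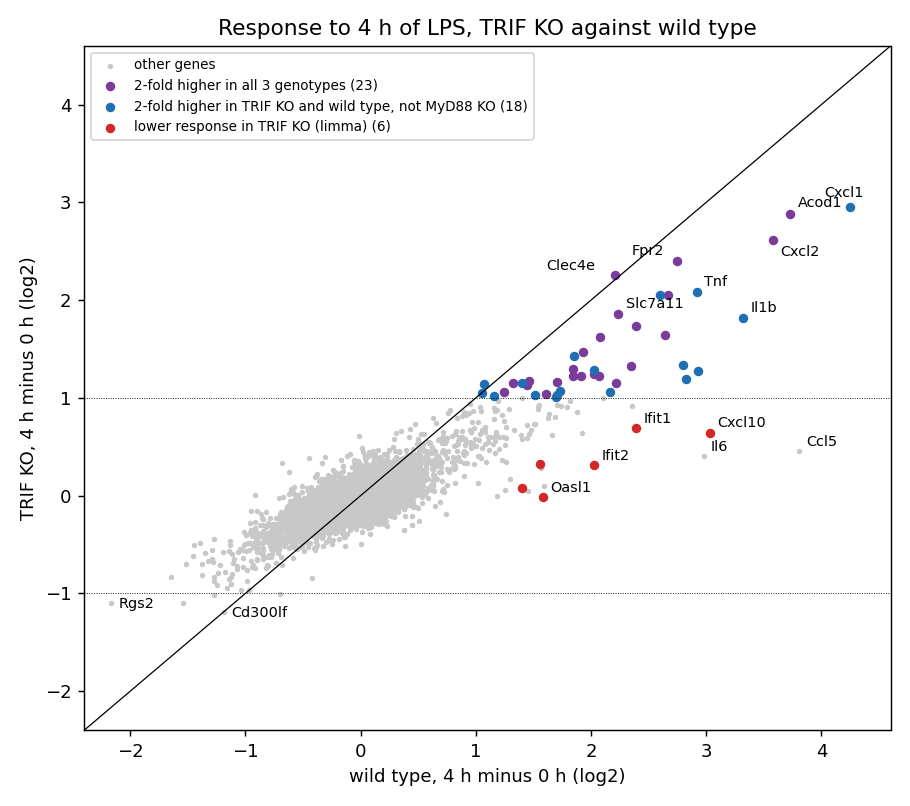
Response to 4 h of LPS in TRIF KO (y axis, log2) against wild type (x axis, log2), 1 point per gene for 10032 genes, each a difference of 2 arrays. Purple points are the 23 genes at least 2-fold higher in all 3 genotypes, blue points the 18 higher in TRIF KO and wild type and not in MyD88 KO, and red points the 6 genes with a lower response in TRIF KO by limma. The diagonal marks equal responses and the dotted lines a 2-fold difference in TRIF KO. Most genes far to the right lie below the diagonal, with Cxcl1 at 2.95 against 4.25, Ccl5 at 0.46 against 3.80 and Clec4e, at 2.25 against 2.21, on it.

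Chemokines that recruit neutrophils were among the highest genes. Cxcl1, a ligand of the neutrophil receptor CXCR2, read 5.33, 8.57 and 8.28 at 0, 1 and 4 h in TRIF KO, 5.19, 9.17 and 9.44 in wild type, and 5.11, 6.24 and 5.33 in MyD88 KO. The TRIF KO arrays were high at both times after LPS and the MyD88 KO array was back near its start at 4 h. The difference of 2.95 ± 0.796 (SE) in TRIF KO was the highest of all genes as deposited and missed the threshold (limma, Benjamini-Hochberg adjusted p = 0.194), with 4.25 in wild type and 0.22 in MyD88 KO behind that error. Its 0 h level lay under 6, and with values under 6 raised to 6 its difference was 2.28, below those of Acod1, Cxcl2 and Fpr2. Cxcl2, another CXCR2 ligand, read 9.27, 11.90 and 11.88 in TRIF KO, 9.01, 12.36 and 12.59 in wild type, and 7.18, 10.12 and 9.10 in MyD88 KO. It rose by 2.62 ± 0.356 in TRIF KO (limma, Benjamini-Hochberg adjusted p = 0.00224). Ccl3, which attracts monocytes, read 9.23, 9.91 and 10.57 in TRIF KO and 8.73, 9.86 and 11.53 in wild type, a difference of 1.34 ± 0.626 in TRIF KO that missed the threshold (limma, Benjamini-Hochberg adjusted p = 0.819). Cxcl5, another neutrophil attractant, went from 4.088 to 5.005 in TRIF KO and from 4.11 to 6.47 in wild type. Only the wild-type 4 h array was above 6, so its TRIF KO levels also lay below the filter, though Cxcl5 is counted in the chemokine list. Cxcl16, a transmembrane chemokine named after its values were seen, rose by 0.82 ± 0.148 (limma, Benjamini-Hochberg adjusted p = 0.0211). Of 16 measured chemokines on a list kept apart from Ccl5, Cxcl9 and Cxcl10, 2 rose, 0 fell and 3 were at least 2-fold higher. Their median was 0.38 in TRIF KO, 0.55 in wild type and 0.09 in MyD88 KO, against a median of -0.02 over all genes in TRIF KO. Cxcl13, a B cell attractant that lies outside that list, read 8.88, 9.09 and 10.03 in TRIF KO and rose by 1.15 ± 0.175 (limma, Benjamini-Hochberg adjusted p = 0.00584), beside 1.07 in wild type and 0.69 in MyD88 KO.

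Cxcl1 and Cxcl2 lie near each other on chromosome 5, and their promoters are shown because they were among the 3 highest genes. The sequences are the 250 bases before the start of the gene on its own strand, from RefSeq on GRCm38.p6, at chr5:90890995-90891244 (plus strand) for Cxcl1 and chr5:90903649-90903898 (plus strand) for Cxcl2. Capitals mark matches to the kappaB consensus, the element bound by NF-kB, searched on both strands.
Cxcl1: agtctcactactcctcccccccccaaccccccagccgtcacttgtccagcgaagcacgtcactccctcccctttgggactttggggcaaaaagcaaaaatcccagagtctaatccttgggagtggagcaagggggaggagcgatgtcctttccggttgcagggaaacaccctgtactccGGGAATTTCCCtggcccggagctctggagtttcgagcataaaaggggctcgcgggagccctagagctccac
Cxcl2: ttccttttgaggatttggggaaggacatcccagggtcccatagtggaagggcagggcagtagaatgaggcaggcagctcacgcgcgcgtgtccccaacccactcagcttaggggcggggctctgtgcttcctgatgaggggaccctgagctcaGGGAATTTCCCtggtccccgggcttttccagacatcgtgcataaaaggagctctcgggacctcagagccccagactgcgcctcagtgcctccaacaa
Each promoter held 2 overlapping matches, which began 71 and 70 bases before the start in Cxcl1 and 97 and 96 bases before it in Cxcl2, with the same letters in capitals. The promoter of Acod1, the other of the 3 genes, at chr14:103046762-103047011, held no match to it in this window. Of the 41 genes at least 2-fold higher, 36 had a promoter in the table and 9 of them (25%) held a kappaB match at any start, against 894 of 8083 analysed genes (11.1%) and 7.25% of all 32851 promoters. A match is a description of letters and not a measured site.

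Among cytokines the pattern was uneven. Tnf, the main early inflammatory cytokine, read 9.66, 11.92 and 11.75 at 0, 1 and 4 h in TRIF KO, 9.54, 12.67 and 12.46 in wild type, and 8.82, 10.08 and 9.61 in MyD88 KO. Its difference in TRIF KO was 2.09 ± 0.461 and missed the threshold (limma, Benjamini-Hochberg adjusted p = 0.0694). Il1b, the precursor of interleukin 1 beta, read 6.99, 9.21 and 8.81 in TRIF KO, 6.95, 9.83 and 10.27 in wild type, and 6.61, 7.60 and 6.58 in MyD88 KO. Its difference was 1.82 ± 0.651 (limma, Benjamini-Hochberg adjusted p = 0.488), so the TRIF KO array lay between the other genotypes at 4 h. Tnfsf9, a costimulatory ligand of the TNF family, and Il1a were higher by 1.20 ± 0.527 and 1.06 ± 0.419, and neither passed. Il6 differed from these: it read 3.91, 4.29 and 4.32 in TRIF KO, 3.98, 4.47 and 6.96 in wild type, and 4.20, 3.90 and 3.98 in MyD88 KO. Of the 9 arrays only wild type at 4 h exceeded 6, so Il6 was analysed through that array alone. Its levels on both knockouts lay below the filter, and the limma difference of 0.40 in TRIF KO is not read as a response. Il12b, the shared subunit of interleukins 12 and 23, likewise exceeded 6 only on the wild-type 4 h array, at 6.27, and read 5.64 in TRIF KO, a gene named after its values were seen. Of 15 measured cytokines, 4 were at least 2-fold higher in TRIF KO and 0 rose or fell by limma. In TRIF KO 14 of the 15 lay below wild type, against 5267 of all 10032 genes. Il6 and Il12b, analysed through the wild-type 4 h array alone, are counted in this list. For them the filter favours a higher wild-type value. The list median was 0.16 in TRIF KO, 0.55 in wild type and 0.08 in MyD88 KO.

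**Figure D2:**
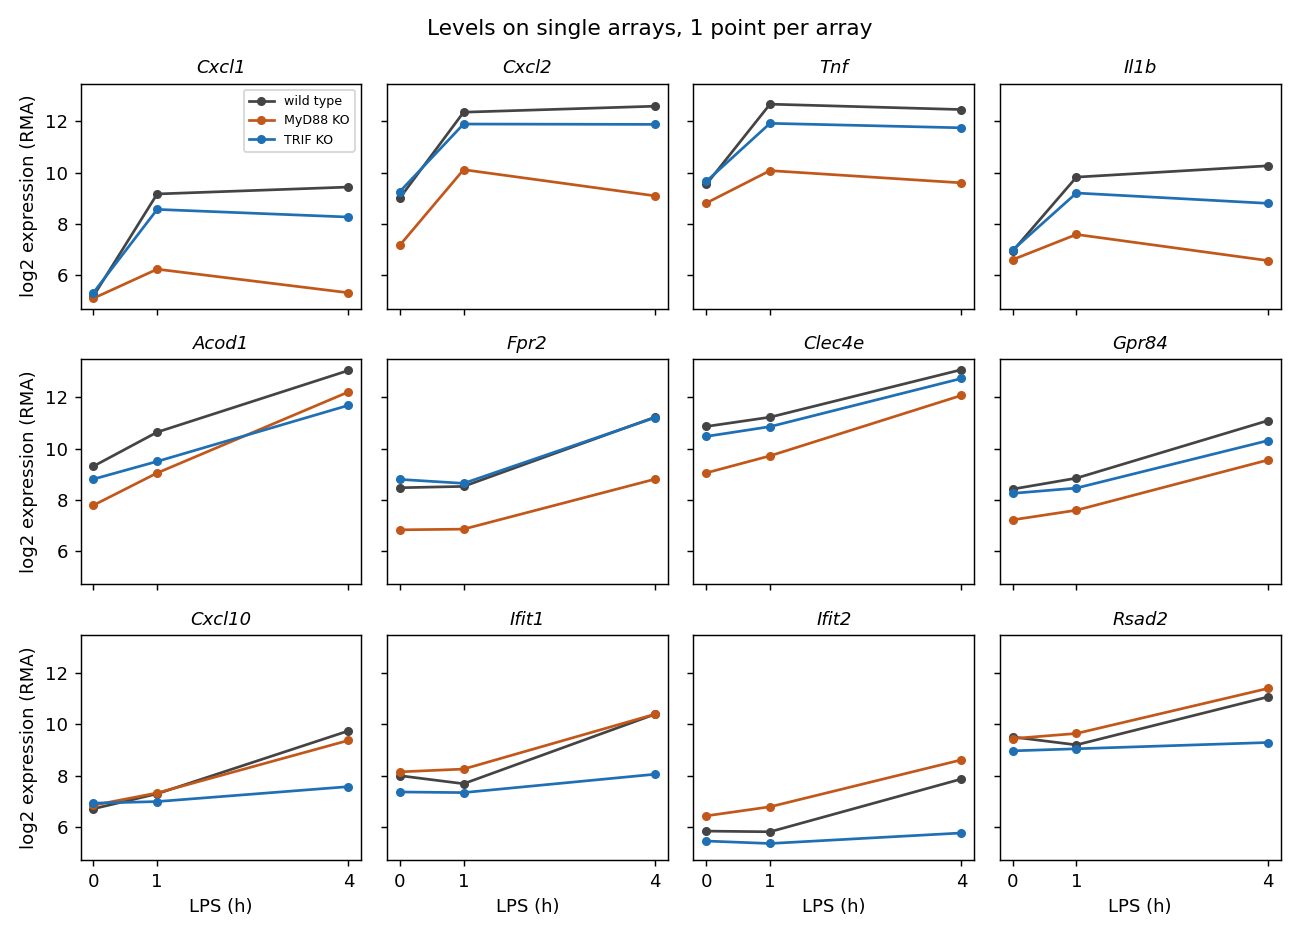
Log2 expression (y axis) of 12 genes against hours of LPS (x axis), 1 point per array, with lines joining the 3 arrays of a genotype. In the upper row TRIF KO lies between wild type and MyD88 KO at 1 and 4 h, in the middle row all genotypes climb between 1 and 4 h, and in the lower row TRIF KO stays below the other 2 genotypes at 4 h, as for Cxcl10 at 7.58 against 9.75 and 9.38.

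Surface receptors of innate immunity held the largest group of calls. Fpr2, a receptor for formylated peptides and lipoxins, read 8.80, 8.65 and 11.20 at 0, 1 and 4 h in TRIF KO, 8.47, 8.53 and 11.22 in wild type, and 6.84, 6.86 and 8.81 in MyD88 KO. It rose by 2.40 ± 0.220 (limma, Benjamini-Hochberg adjusted p = 9.75e-05), to a 4 h level 0.02 below wild type. Clec4e (Mincle), a receptor for mycobacterial glycolipid, read 10.47, 10.85 and 12.73 in TRIF KO, 10.86, 11.22 and 13.07 in wild type, and 9.05, 9.72 and 12.07 in MyD88 KO. It rose by 2.25 ± 0.210 in TRIF KO (limma, Benjamini-Hochberg, adjusted p = 9.75e-05); its other probe set gave 2.39. Gpr84, which senses medium-chain fatty acids, read 8.26, 8.46 and 10.31 in TRIF KO, 8.42, 8.85 and 11.09 in wild type, and 7.22, 7.60 and 9.55 in MyD88 KO. It rose by 2.05 ± 0.159 (limma, Benjamini-Hochberg adjusted p = 1.78e-05). Tlr2, the receptor of bacterial lipoproteins, went from 9.61 to 10.84 in TRIF KO and rose by 1.23 ± 0.159 (limma, Benjamini-Hochberg adjusted p = 0.00142). Olr1, the LOX-1 scavenger receptor, rose by 1.17 and Clec5a by 0.93, and Tlr1, the partner of Tlr2, which is on none of the lists, rose by 0.90; these 3 were named after their values were seen. Of 19 innate receptors, 6 rose, 0 fell and 5 were at least 2-fold higher. The list median of 0.31 in TRIF KO stood beside 0.34 in wild type and 0.28 in MyD88 KO. Below wild type lay 10 of the 19, near the share over all genes (5267 of 10032). Cd14, the LPS co-receptor, was higher by 0.60 ± 0.199 in TRIF KO, beside 1.11 in wild type, and did not pass. Tlr4 itself, named after its value was seen, was at -0.29. Of 19 components of TLR4 signalling only Ikbke, the kinase IKK-epsilon, rose, by 0.84 ± 0.149 (limma, Benjamini-Hochberg adjusted p = 0.0178). Their median was 0.00.

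Effector enzymes were led by Acod1, which makes itaconate from a citric acid cycle intermediate. It read 8.81, 9.50 and 11.69 at 0, 1 and 4 h in TRIF KO, 9.31, 10.64 and 13.04 in wild type, and 7.79, 9.05 and 12.21 in MyD88 KO. The rise of 2.88 ± 0.213 in TRIF KO (limma, Benjamini-Hochberg adjusted p = 1.78e-05) was the largest of those that passed, while the 4 h level was the lowest of the 3 genotypes. Ptges, the inducible prostaglandin E synthase, read 7.45, 7.57 and 8.73 in TRIF KO, and 7.54, 7.76 and 9.57 in wild type. Ptgs2, the inducible cyclooxygenase that acts before it, read 5.38, 6.03 and 6.65 in TRIF KO, and 5.47, 6.62 and 8.40 in wild type. Their differences of 1.28 ± 0.326 and 1.27 ± 0.562 in TRIF KO did not pass. Ptgs2 started under 6, and its difference was 0.651 with such values raised to 6 and 1.72 on its other probe set. Hp, the acute phase protein haptoglobin, rose by 1.05 ± 0.152 (limma, Benjamini-Hochberg adjusted p = 0.00432), with 1.06 in wild type and 0.94 in MyD88 KO. Of 15 effector and arginine genes, 2 rose and 0 fell, and the median was 0.46 in TRIF KO, 0.64 in wild type and 0.22 in MyD88 KO.

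Of 15 genes against oxidative stress 2 rose and 0 fell, with a list median of 0.55 in TRIF KO, 0.59 in wild type and 0.44 in MyD88 KO. In TRIF KO 13 of the 15 stood above 0, against 4501 of all 10032 genes. Slc7a11, the cystine transporter that feeds glutathione synthesis, read 7.95, 7.96 and 9.81 at 0, 1 and 4 h in TRIF KO, 8.19, 8.25 and 10.43 in wild type, and 7.56, 7.54 and 8.99 in MyD88 KO. All 3 genotypes were flat at 1 h and high at 4 h, and the rise in TRIF KO was 1.86 ± 0.221 (limma, Benjamini-Hochberg adjusted p = 0.000745). Sod2, the mitochondrial superoxide dismutase, rose from 10.94 to 12.09, by 1.16 ± 0.148 (limma, Benjamini-Hochberg adjusted p = 0.00135), while its other probe sets gave 0.601 to 1.18. Srxn1, which repairs oxidised peroxiredoxins, and the metallothionein Mt2 were at 0.63 and 0.61 and did not pass.

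NF-kB subunits and inhibitors were all above 0 in TRIF KO (12 of 12) and all below wild type, against 4501 and 5267 of all 10032 genes. Nfkbiz, an inducible nuclear cofactor of NF-kB, read 7.07, 10.39 and 9.12 at 0, 1 and 4 h in TRIF KO, 6.87, 10.73 and 9.47 in wild type, and 5.92, 7.31 and 6.55 in MyD88 KO. Its other probe set gave 1.29, and its difference of 2.05 ± 0.515 missed the threshold (limma, Benjamini-Hochberg adjusted p = 0.145). Nfkbie, the inhibitor IkB-epsilon, rose by 1.24 ± 0.143 (limma, Benjamini-Hochberg adjusted p = 0.000588), below 2.02 in wild type and 2.04 in MyD88 KO. Relb and Nfkb2, the subunits of the alternative NF-kB pathway, rose by 1.06 ± 0.156 and 1.04 ± 0.159, but the other probe set of Nfkb2 gave 0.210. Of the 12 members 3 rose, 0 fell and 4 were at least 2-fold higher, with medians of 0.57 in TRIF KO, 1.05 in wild type and 0.63 in MyD88 KO.

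Brakes on signalling split by member. Socs3, an inhibitor of cytokine receptor signalling, read 7.86, 8.91 and 9.29 at 0, 1 and 4 h in TRIF KO, 7.66, 9.53 and 9.51 in wild type, and 7.57, 7.95 and 7.67 in MyD88 KO. It was higher by 1.43 ± 0.384 in TRIF KO without passing, and its other probe sets gave 2.01 to 2.32. Pde4b, a phosphodiesterase that breaks down cyclic AMP, rose by 1.33 ± 0.244 (limma, Benjamini-Hochberg adjusted p = 0.0234). Rgs2, which shortens G protein signals, was lower. Of 18 feedback regulators 1 rose and 0 fell. Among 15 genes of inflammasomes, survival and cell death, 2 rose: Birc3, an inhibitor of apoptosis, by 0.89 ± 0.149, with 0.062 on its other probe set, and the death receptor Fas by 0.88 ± 0.150. Traf1 and Nlrp3, the sensor of the main inflammasome, were at 1.15 ± 0.262 and 1.01 ± 0.263 and did not pass, and Traf1, which started under 6, was at 0.494 with such values raised to 6.

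Adhesion, matrix and clotting genes gave further calls. Icam1, the ligand of leukocyte integrins, read 8.76, 9.12 and 10.41 at 0, 1 and 4 h in TRIF KO, 8.75, 9.37 and 11.39 in wild type, and 7.78, 8.12 and 10.10 in MyD88 KO. It rose by 1.65 ± 0.157 in TRIF KO (limma, Benjamini-Hochberg adjusted p = 0.000102), which left it between the other genotypes at 4 h. The membrane metalloproteinase Mmp14 rose by 1.16 ± 0.147, and of 16 genes of this list 2 rose and 0 fell. Serpinb2, an inhibitor of plasminogen activators, went from 8.21 to 9.67 and rose by 1.47 ± 0.153 (limma, Benjamini-Hochberg adjusted p = 0.000195). Procr, the protein C receptor, rose by 0.91 ± 0.151, whereas Thbd, thrombomodulin, was lower, and of 9 clotting genes 2 rose and 0 fell. Antigen presentation and costimulation had 19 measured members, of which 0 rose or fell by limma. Icosl, a costimulatory ligand, was the only member at least 2-fold higher, at 1.03 ± 0.315, and its other probe set gave 0.012. Cd40, the receptor through which T cells activate macrophages, was at 0.86 in TRIF KO, 1.88 in wild type and 0.58 in MyD88 KO.

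Marcksl1, Ehd1 and Tma16 were among the 20 highest and belong to none of the lists. Marcksl1, a regulator of actin, read 10.66, 11.15 and 12.40 at 0, 1 and 4 h in TRIF KO, 9.85, 10.55 and 12.24 in wild type, and 9.29, 10.17 and 12.14 in MyD88 KO. It rose by 1.74 ± 0.168 (limma, Benjamini-Hochberg adjusted p = 0.000104) from the highest start of the 3 genotypes. Ehd1, a protein of endosome recycling, read 9.378, 9.662 and 10.998 in TRIF KO, a rise of 1.62 ± 0.162 (limma, Benjamini-Hochberg adjusted p = 0.000135). Its other 3 probe sets gave 1.43 to 1.57. Tma16 rose by 1.29 ± 0.245 (limma, Benjamini-Hochberg adjusted p = 0.0278), but its other probe set gave 0.080. The remaining genes at least 2-fold higher that rose were Ralgds, Mcoln2, Ampd3 and Lmo4, and those that did not pass were Gbp2, Mefv and Met. Under 2-fold, 18 genes rose. Besides those described with the lists they were Adgre4, Alas1, Abcc1, Cebpb, Ell2, Ext1, Hvcn1, Mapkapk2, Slc11a2, Slc25a37 and Vasp, named here, Cebpb apart, because they passed and not by the rule. Cebpb, a transcription factor on the macrophage identity list, rose from 11.35 to 12.14, by 0.79 ± 0.148 (limma, Benjamini-Hochberg adjusted p = 0.0256).

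**Figure D3:**
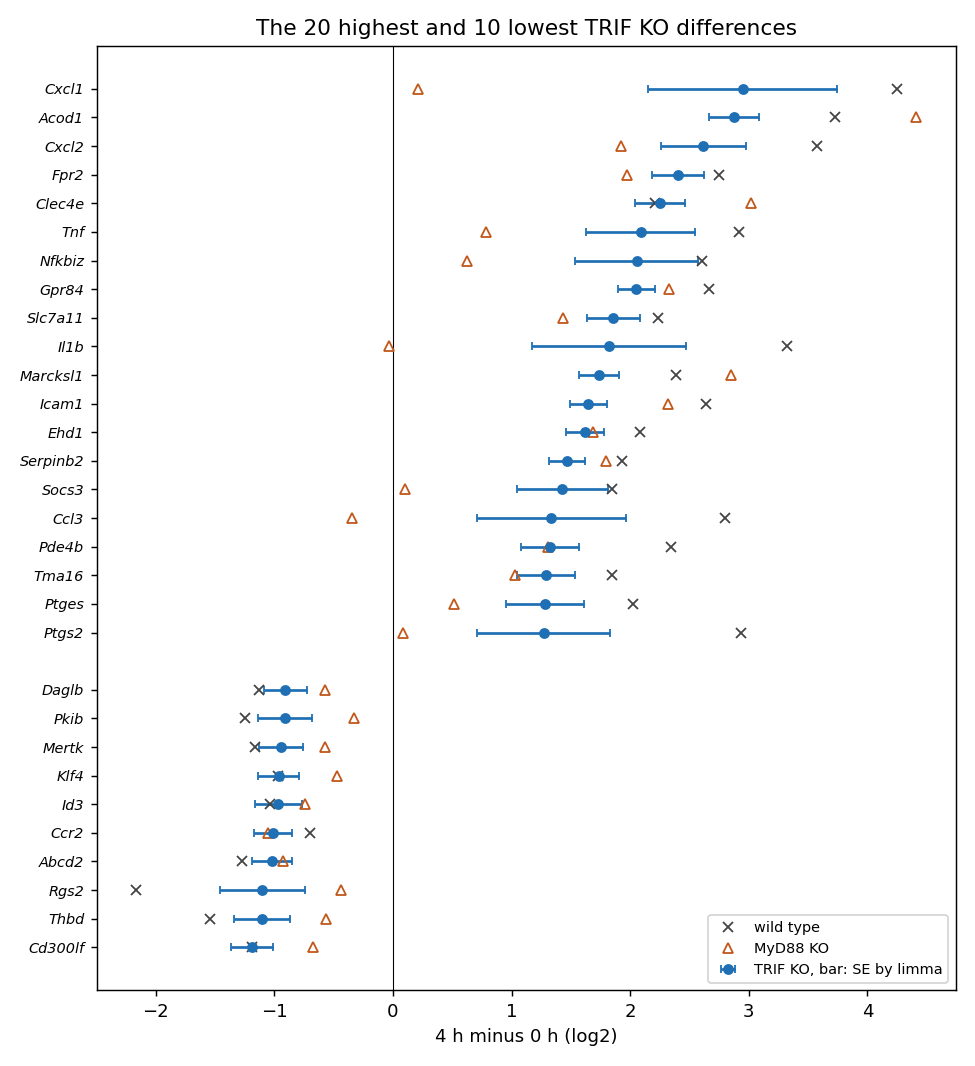
Difference of 4 h and 0 h (x axis, log2) for the 20 genes with the highest and the 10 with the lowest value in TRIF KO (rows). Points are the TRIF KO difference with bars of 1 SE by limma, crosses are wild type and triangles MyD88 KO, each from 2 arrays. Wide bars, as for Cxcl1 at 0.796 and Il1b at 0.651, belong to genes with a high cross and a triangle near 0.

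Genes lowered by 4 h of LPS in TRIF KO were fewer, and none reached 4-fold. Cd300lf, an inhibitory receptor of myeloid cells, read 9.82, 9.86 and 8.64 at 0, 1 and 4 h in TRIF KO, 10.05, 10.06 and 8.87 in wild type, and 10.35, 10.37 and 9.67 in MyD88 KO. It fell by 1.19 ± 0.181 on the log2 scale in TRIF KO (limma, Benjamini-Hochberg adjusted p = 0.00584), beside -1.18 in wild type. Abcd2, a peroxisomal transporter of fatty acids, read 7.05, 7.11 and 6.04 in TRIF KO and changed by -1.02 ± 0.165 (limma, Benjamini-Hochberg adjusted p = 0.00950). Ccr2, the receptor that draws monocytes into tissue, read 7.56, 7.45 and 6.55 in TRIF KO, 6.90, 6.92 and 6.2 in wild type, and 7.68, 7.42 and 6.63 in MyD88 KO. Its change of -1.01 ± 0.160 (limma, Benjamini-Hochberg adjusted p = 0.00790) stood beside -0.70 in wild type, which started lower, and its other probe sets gave -0.806 and -0.370. Thbd, which read 8.38, 8.16 and 7.28 in TRIF KO, and Rgs2, which read 10.06, 9.45 and 8.96, were lower by more than 2-fold without passing, at -1.10 ± 0.236 and -1.10 ± 0.361. Rgs2 stood at -2.17 in wild type and -0.44 in MyD88 KO.

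The transcriptional regulators Id3 and Klf4 also fell, with changes of -0.96 ± 0.198 and -0.96 ± 0.175 (limma, Benjamini-Hochberg adjusted p = 0.0477 and 0.0227), and the other probe set of Klf4 gave -0.539. Mertk, the receptor with which macrophages engulf apoptotic cells and a member of the identity list, read 9.10, 9.19 and 8.16 in TRIF KO and changed by -0.94 ± 0.184 (limma, Benjamini-Hochberg adjusted p = 0.0349). Daglb, a lipase that makes the endocannabinoid precursor of arachidonate, fell with a change of -0.91 ± 0.178. Pkib, an inhibitor of protein kinase A, was at -0.91 ± 0.227 and did not pass, and its other probe set gave -0.262. The other genes that fell were Bcar3 (-0.87), Fhdc1 (-0.84) and Slc46a3 (-0.88), named because they passed. Of 17 genes of lipid and cholesterol handling 2 fell and 0 rose, with a median of -0.16 in TRIF KO and -0.14 in wild type. Pparg, the nuclear receptor that drives lipid uptake genes, was at -0.83 ± 0.262 in TRIF KO and -1.65 in wild type and did not pass. Ch25h, also of the lipid list, was higher, at 0.91 ± 0.328 in TRIF KO and 1.79 in wild type. It started under 6 and did not pass. A further list held chemokine and other G protein-coupled receptors chosen as lowered in activated macrophages, so low values in it are partly given by that choice. Of its 9 measured members 1 fell. Cxcr4 and the cannabinoid receptor Cnr2 were at -0.70 and -0.62, against -1.51 and -1.46 in wild type. Ccrl2, on the same list, went the other way without passing, at 0.80 in TRIF KO, 1.69 in wild type and 1.09 in MyD88 KO. The 46 genes at least 2-fold lower in wild type (0.459%) were all below 0 in TRIF KO, 41 of them at -0.5 or lower. Of all 10032 genes, 4501 were above 0 in TRIF KO. For these 46 the TRIF KO value was a median of 54.1% of the wild-type one (quartiles 49.3% and 69.5%). They were chosen on the wild-type arrays, so a smaller change in TRIF KO is partly given by that choice.

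The genes called with a lower response in TRIF KO than in the other genotypes were genes induced by interferon. The fit tested the 4 h response of TRIF KO against the mean response of wild type and MyD88 KO. It was lower in TRIF KO for 6 genes (0.0598%) and higher for 0 (0%). At an unadjusted limma p under 0.05 were 61 lower and 25 higher of the 10032 genes. That is fewer than this threshold would pass with no effect at all. The p-values are therefore not calibrated over all genes, and the 61 and 25 are not read as a lean to lower responses. The error of this test also comes from how far the wild-type and MyD88 KO responses differ. Genes with unlike responses in these 2 genotypes, such as Cxcl1, Nfkbiz, Socs3 and Ccl5, carry a large error and can hardly pass in either direction. The test therefore favours genes with similar responses in both, and the counts of 6 and 0 say little on the others. All 6 are known targets of interferon. Cxcl10, a chemokine that attracts activated T cells, read 6.934, 6.997 and 7.578 at 0, 1 and 4 h in TRIF KO, 6.71, 7.30 and 9.75 in wild type, and 6.85, 7.33 and 9.38 in MyD88 KO. The 3 genotypes started alike, and at 4 h TRIF KO lay far below both others. Its response was -2.14 ± 0.215 against their mean (95% interval -2.60 to -1.67, limma, Benjamini-Hochberg adjusted p = 0.00101). Ifit2, which binds foreign RNA, read 5.46, 5.36 and 5.77 in TRIF KO, 5.85, 5.82 and 7.87 in wild type, and 6.44, 6.79 and 8.62 in MyD88 KO, a response difference of -1.79 ± 0.197 (limma, Benjamini-Hochberg adjusted p = 0.00145). Ifit1, of the same family, read 7.37, 7.35 and 8.06 in TRIF KO, 8.004, 7.69 and 10.40 in wild type, and 8.15, 8.26 and 10.40 in MyD88 KO, a difference of -1.63 ± 0.222 (limma, Benjamini-Hochberg adjusted p = 0.00994). Ifit2 stayed under 6 on all TRIF KO arrays and passed the filter through arrays of the other genotypes, so its response difference is not exact. The TRIF KO array was already the lowest at 0 h for both genes and lay further below the others at 4 h.

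Oasl1, a translational regulator of the OAS family, was flat in TRIF KO, at 8.17, 8.16 and 8.16, against 8.33 to 9.91 between 0 and 4 h in wild type and 8.52 to 9.80 in MyD88 KO. Rsad2 (viperin), an antiviral enzyme, read 8.97, 9.05 and 9.30 in TRIF KO, 9.51, 9.20 and 11.07 in wild type, and 9.45, 9.65 and 11.40 in MyD88 KO. Cmpk2, its neighbour and a mitochondrial nucleotide kinase, read 6.05, 5.88 and 6.13 in TRIF KO, 6.17, 6.18 and 7.57 in wild type, and 6.56, 6.30 and 7.69 in MyD88 KO. Their response differences were -1.45 ± 0.198, -1.43 ± 0.214 and -1.18 ± 0.190, with adjusted p-values of 0.00994, 0.0212 and 0.0383 (limma, Benjamini-Hochberg). The other probe sets of Rsad2 and Cmpk2 gave TRIF KO differences of 0.330 to 0.351 and 0.059, close to the 0.33 and 0.08 of those used. None of the 6 passed with values under 6 raised to 6. Under cyclic loess scaling Cxcl10 and Ifit2 were the 2 of the 6 that still passed, and Cmpk2 was lost after centring on the reference transcripts. Because Ifit2 lay under 6 on every TRIF KO array, its pass does not give an exact response. Over the alternatives other than raised values and left-out arrays, the adjusted p of limma ranged from 2.71e-05 to 0.0195 for Cxcl10 and from 8.24e-05 to 0.0485 for Ifit2. Ccl5, a T cell attractant, read 7.11, 7.14 and 7.56 in TRIF KO, 7.68, 7.71 and 11.48 in wild type, and 7.60, 7.71 and 9.63 in MyD88 KO. Its response difference of -2.46 ± 0.516 was the largest in size of those named, and it missed the threshold (limma, Benjamini-Hochberg adjusted p = 0.302), with 3.80 in wild type and 2.03 in MyD88 KO.

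Of 39 interferon-stimulated genes 0 rose or fell in TRIF KO by limma, and 5 were among the 6 with a lower response. The list median was 0.08 in TRIF KO, 0.50 in wild type and 0.45 in MyD88 KO. The TRIF KO value lay below wild type for 36 and below MyD88 KO for 35 of the 39, against 5267 and 4670 of all 10032 genes. Of the 39, at least 2-fold higher were 1 in TRIF KO, 11 in wild type and 9 in MyD88 KO. The 1 was Gbp2, a guanylate-binding GTPase, which read 7.75, 7.86 and 8.96 in TRIF KO, 7.997, 7.545 and 10.07 in wild type, and 7.45, 7.79 and 9.01 in MyD88 KO. Its difference of 1.22 ± 0.286 in TRIF KO missed the threshold (limma, Benjamini-Hochberg adjusted p = 0.0982), and its other probe set gave 1.24. Irf1, a factor that NF-kB and interferon both induce, was at 0.59 in TRIF KO against 1.45 in wild type. Interferon beta itself did not reach a log2 value of 6 on any array and was left out, and 5 measured interferon alpha and receptor genes lay between 0.03 and 0.12. Alpha interferon genes are near-identical copies whose probe sets may not separate them.

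The promoters of 2 of the genes with a lower response are shown for comparison with Cxcl1 and Cxcl2. They lie at chr5:92348890-92349139 (minus strand) for Cxcl10 and chr19:34640639-34640888 (plus strand) for Ifit1, on GRCm38.p6 from RefSeq, with 250 bases before the start on the strand of the gene. Capitals mark matches to the kappaB consensus or to the core of the interferon-stimulated response element (ISRE), GAAANNGAAA, on either strand.
Cxcl10: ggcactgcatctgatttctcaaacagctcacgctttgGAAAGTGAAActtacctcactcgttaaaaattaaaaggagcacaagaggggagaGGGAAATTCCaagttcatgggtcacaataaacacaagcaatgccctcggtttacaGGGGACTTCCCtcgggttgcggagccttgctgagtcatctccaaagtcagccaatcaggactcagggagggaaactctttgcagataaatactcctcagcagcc
Ifit1: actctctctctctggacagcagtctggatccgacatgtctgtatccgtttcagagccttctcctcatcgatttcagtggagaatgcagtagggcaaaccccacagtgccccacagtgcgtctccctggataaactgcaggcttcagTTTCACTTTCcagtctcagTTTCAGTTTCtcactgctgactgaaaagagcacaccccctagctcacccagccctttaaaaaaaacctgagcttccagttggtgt
Cxcl10 held an ISRE match that began 213 bases before the start and kappaB matches at 159, 104 and 103 bases, the last pair overlapping. Ifit1 held ISRE matches at 104 and 85 bases and no kappaB match in this window. In Ifit2, with 2 starts, the window at chr19:34550444-34550693 held 1 kappaB match at 247 bases and no ISRE match. Of the 6 genes 3 held an ISRE match and 3 a kappaB match, against 3.50% and 11.1% of 8083 analysed genes and 2.98% of all promoters for the ISRE. Of 15 genes with a promoter that were at least 2-fold higher in wild type and MyD88 KO and not in TRIF KO, 5 (33.3%) held a kappaB match and 3 (20%) an ISRE match, so the kappaB share there was above the 25% of the 41 genes. Of the 36 promoters among the 41 higher genes, 1 (2.80%), that of Gbp2, held an ISRE match.

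**Figure D4:**
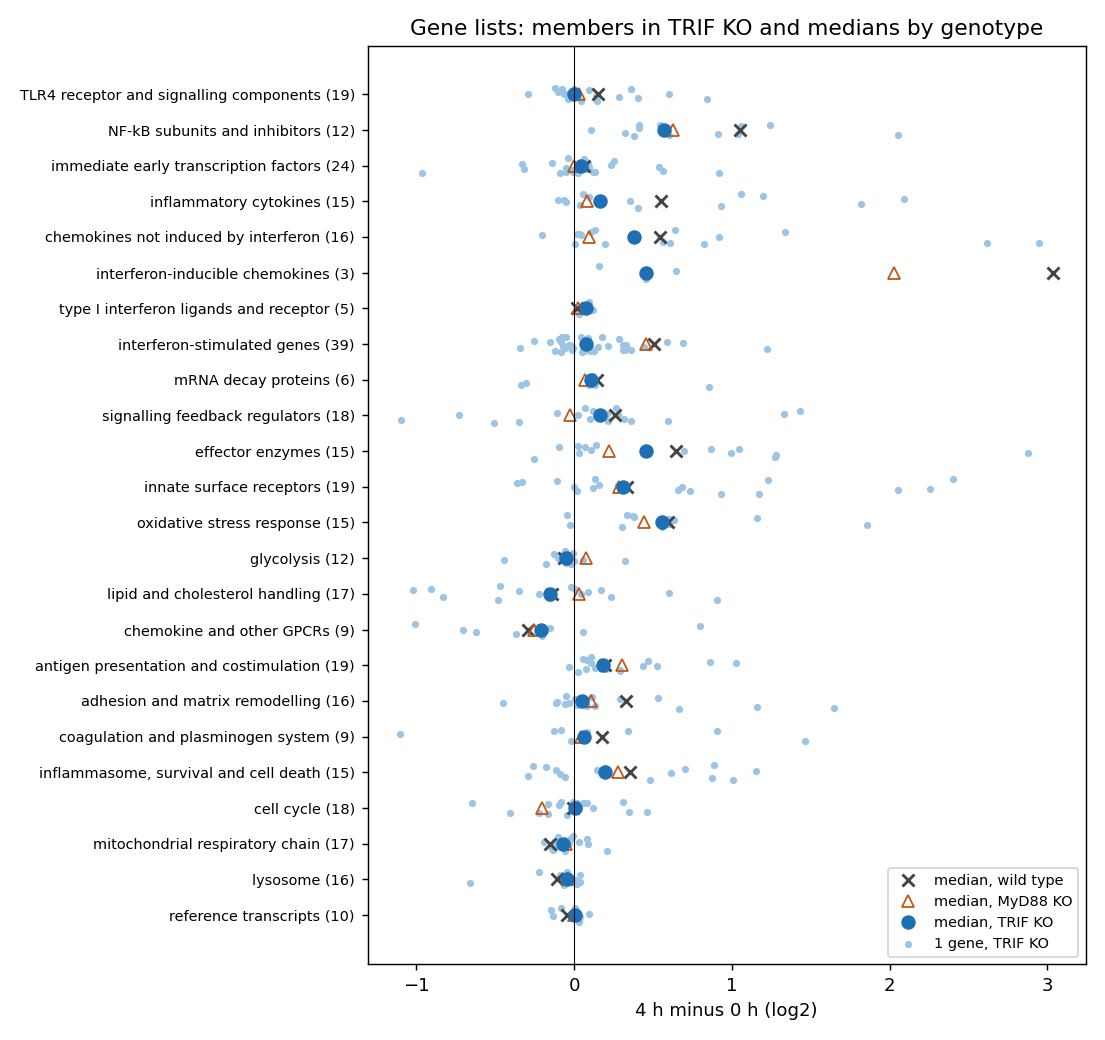
Differences of 4 h and 0 h (x axis, log2) for 24 gene lists (rows, number of measured genes in parentheses). Small points are single genes in TRIF KO, and large symbols are list medians in TRIF KO (circles), wild type (crosses) and MyD88 KO (triangles), each from 2 arrays. The medians of the 3 interferon-inducible chemokines spread most, at 0.46 in TRIF KO, 3.03 in wild type and 2.03 in MyD88 KO. The row of chemokine and other G protein-coupled receptors holds members chosen as lowered in activated macrophages. The row of chemokines not induced by interferon carries the name of its list, and induction by interferon was not tested.

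Housekeeping and metabolic lists showed little movement in TRIF KO. Glycolysis (12 genes) had a median of -0.05, the mitochondrial respiratory chain (17 genes) -0.07, the lysosome (16 genes) -0.04 and the cell cycle (18 genes) 0.00, with 0 calls by limma in each. The lowest values among them were those of Pla2g15, a lysosomal phospholipase, at -0.66, the replication helicase subunit Mcm7 at -0.65, and the glycolytic regulator Pfkfb3 at -0.45. The other probe sets gave -0.477 for Pla2g15, -0.157 to -0.095 for Mcm7 and -0.109 for Pfkfb3. Immediate early transcription factors (24 genes) had a median of 0.05, and 1 of them, Klf4, fell. Maff, a small Maf protein, was at 0.92 in TRIF KO against 1.74 in wild type. Of 6 mRNA decay proteins 0 were called, and Zc3h12a, an endonuclease that degrades cytokine mRNA, was at 0.85 in TRIF KO, 0.90 in wild type and 0.12 in MyD88 KO. The 10 reference transcripts had a median of 0.00 and a range of -0.14 to 0.09.

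The time course within TRIF KO separated early from late genes. The 1 h and 4 h differences share the unstimulated array, so they are given side by side. At 1 h, 14 genes were at least 2-fold higher (0.140%) and 0 were lower. Of these, 9 were at least 2-fold higher at both times: Cxcl1 (3.24 at 1 h and 2.95 at 4 h), Cxcl2 (2.63 and 2.62), Tnf (2.26 and 2.09), Nfkbiz (3.32 and 2.05), Il1b (2.22 and 1.82), Socs3 (1.05 and 1.43), Pde4b (1.19 and 1.33), Tnfsf9 (1.88 and 1.20) and Il1a (1.08 and 1.06). The other 5 were higher at 1 h and no longer 2-fold higher at 4 h. They were Egr1, an immediate early factor, at 2.12 and -0.33, the mRNA decay protein Zfp36 at 1.29 and 0.12, the phosphatase Dusp1 at 1.13 and 0.32, Ier3 at 1.21 and 0.57, and Junb at 1.08 and 0.54. Egr1 read 8.85, 10.97 and 8.52 at 0, 1 and 4 h. At 4 h but not at 1 h, 32 genes were at least 2-fold higher, and 20 of the 41 had moved by less than 0.25 at 1 h. Of the 41 genes 34 had a higher level at 4 h than at 1 h, 18 of them by at least 2-fold. The 41 were chosen for a high TRIF KO 4 h array, so a 4 h level above 1 h is partly given by that choice. Over all genes the median 1 h difference in TRIF KO was 0.007, so a small 1 h value is common. The largest gains from 1 h to 4 h were those of Fpr2 (2.56), Acod1 (2.19), Clec4e (1.88), Slc7a11 (1.86) and Gpr84 (1.85).

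The TRIF KO response followed the wild-type one at a smaller size. All 41 genes at least 2-fold higher in TRIF KO were also at least 2-fold higher in wild type, and they made 33.3% of the 123 such genes there (1.23%). In MyD88 KO 43 genes were at least 2-fold higher (0.429%). The 23 genes higher in all 3 genotypes made 56.1% of the TRIF KO list and 53.5% of the MyD88 KO list, and the other 18 of the TRIF KO list (43.9%) were higher in wild type and not in MyD88 KO. Across the 10032 genes the 4 h differences correlated at 0.782 between TRIF KO and wild type, 0.607 between TRIF KO and MyD88 KO and 0.554 between wild type and MyD88 KO. These comparisons share no arrays, and genes are not independent replicates.

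Over the 123 genes higher in wild type, the TRIF KO difference was a median of 54.4% of the wild-type one (quartiles 42.8% and 68.5%), and the MyD88 KO difference a median of 55.7%. The TRIF KO difference lay below wild type for 121 of the 123 and below MyD88 KO for 58, against 5267 and 4670 of all 10032 genes. Among the 41 genes 39 lay below wild type. The exceptions were Clec4e, at 2.25 against 2.21, and Cxcl13, at 1.15 against 1.07, and Hp, at 1.05 against 1.06, came next, differences smaller than the SE of each. The level at 4 h was below wild type for 36 of the 41. The 123 were chosen on the wild-type arrays, so a smaller value elsewhere is partly given by that choice. Some of them, such as Il6, Cxcl5, Gbp6 and Gca, also passed the filter through the wild-type 4 h array alone.

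Of the 123 genes, 82 were under 2-fold in TRIF KO, 18 of which were at least 2-fold higher in MyD88 KO and 64 in neither knockout. At 0.5 or more in TRIF KO were 59 of the 82, under 0.5 were 23, under 0.2 were 8 and at or under 0 were 2. The 8 were Cmpk2, Gbp6, Ifih1, Oasl1, Parp14, Peli1, Rtp4 and Tsc22d1, of which Gbp6, Ifih1, Parp14, Peli1, Rtp4 and Tsc22d1 were named after their values were seen. Ifih1, the RNA sensor MDA5, was at 0.10 in TRIF KO, 1.59 in wild type and 1.05 in MyD88 KO, and Peli1, a ubiquitin ligase of Toll-like receptor pathways, at 0.00, 1.19 and 1.03. Neither passed the test of the response difference (limma, Benjamini-Hochberg adjusted p = 0.252 and 0.106). Large shortfalls from wild type were those of Ccl5 (0.46 against 3.80), Cxcl10 (0.64 against 3.03), Ifit2 (0.31 against 2.03) and Ifit1 (0.69 against 2.39). They were not particular to genes induced by interferon. Ptgs2 (1.27 against 2.93), Tnfsf9 (1.20 against 2.82), Il1b (1.82 against 3.32) and Ccl3 (1.34 against 2.80) fell short by nearly as much as Ifit1, though Ptgs2 started under 6. Ifit2 was below 6 on all TRIF KO arrays, as was Gbp6, so these carry no exact TRIF KO response; Il6, below 6 on every array but 1, was not ranked.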

How the data were processed

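Total RNA of 9 macrophage samples, 1 per genotype and time, was hybridised to Affymetrix arrays. The authors deposited log2 values made with RMA (background correction, quantile normalization and probe summary), per the submitters' processing notes; no RMA version is named, and joint normalization of the 9 arrays is not stated. Of 22690 probe sets, 20393 had 1 gene symbol, 691 several and 1606 none; 20364 were matched to RefSeq (GRCm38.p6). A gene with several probe sets was represented by the brightest one on average, and the 10032 of 12394 genes that reached a log2 value of 6 on any array were analysed.

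With 1 array a side, a difference of 4 h minus 0 h was described by its size (2-fold). A limma model (limma 3.58.1, R 4.3.3) of genotype and time, with TRIF KO terms at 1 h and 4 h, left 2 residual degrees of freedom and had 12.01 prior ones. It was tested on simulated data without a response in wild type or MyD88 KO. That test did not cover genes whose responses differ between these 2 genotypes. The p-values of the model set a difference against how far the wild-type and MyD88 KO responses differ, moderated by the prior. They do not measure a spread between animals, since nothing says that the arrays came from separate ones. Genes were named as the 20 highest and 10 lowest in TRIF KO, up to 10 with a lower and 5 with a higher response by limma, the 5 extremes of each contrast with wild type and of 4 h with 1 h, and up to 4 members of each list farthest from 0. The members and lists were chosen with earlier results of these data known. Alternatives were other probe set and filter rules, centring, cyclic loess, a robust prior, another baseline, fewer arrays and each wild-type or MyD88 KO array left out.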

Additional observations from a re-analysis of the deposited data

Results flagged for a closer look

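The 4 h response of 6 genes was lower in TRIF KO than the mean response of wild type and MyD88 KO by the limma test of that difference. The difference was -2.136 for Cxcl10, -1.791 for Ifit2, -1.628 for Ifit1, -1.445 for Oasl1, -1.43 for Rsad2 and -1.177 for Cmpk2 on the log2 scale. The value of Ifit2 is not exact, since it stayed under a log2 value of 6 on all TRIF KO arrays. Genes whose responses differ between wild type and MyD88 KO carry a large error in that test and can hardly pass it.

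Signal was also present in probe sets that name no single gene and enter no gene count. Of 1410 such probe sets that reached a log2 value of 6, 5 (0.355%) were at least 2-fold higher in TRIF KO at 4 h, near the 0.409% of named genes. The highest were 1437111_at, with a difference of 1.638 in TRIF KO, 1.648 in wild type and 0.814 in MyD88 KO, and 1416239_at, with 1.598 in TRIF KO, 1.227 in wild type and 2.011 in MyD88 KO.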

How the results depend on the processing

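No paired analysis was possible because each group has 1 array and the labels give no number that ties arrays of different groups together. The count of 41 genes at least 2-fold higher in TRIF KO stayed between 35 and 47 under the alternatives, while that of 5 genes at least 2-fold lower became 8 with the mean of the TRIF KO and wild-type unstimulated arrays as baseline. The limma counts moved more. With values under 6 raised to 6, 0 genes rose, 0 fell and 0 had a lower response: 36 genes then sat at 6 on every wild-type and MyD88 KO array, and the prior degrees of freedom went from 12.01 to 3.01. Centring on the reference transcripts, which lay 0.0486 higher on the TRIF KO 4 h array, gave 26 that rose and 6 that fell, all among those called, and ended the lower response of Cmpk2. Cyclic loess kept 30 of the 43 that rose, and left 3 that fell and 2 lower responses (Cxcl10 and Ifit2). The mean of the probe sets also kept 30 of the 43. The genes that fell numbered 5 with the mean of the probe sets, 17 without the filter on low values and 20 with a robust prior. Without the 1 h arrays 10 genes had a lower response, adding Ccl5, Ifih1, Parp14 and Peli1. Leaving out 1 wild-type or MyD88 KO array at a time left 1 residual degree of freedom, with errors close to or at a common value for all genes, so it says little on stability. It gave 54 to 121 that rose, 13 to 56 that fell, 10 to 24 lower responses and 0 to 4 higher ones, and kept all 43, 10 and 6 of the genes called. The extremes were 121 and 56 without wild type at 4 h or MyD88 KO at 4 h, and 24 without MyD88 KO at 4 h. The cause of the other moves was not tested. Neither TRIF KO array can be left out.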
